A study of Rattus norvegicus with 8 samples.

Results

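The calcium pumps and sodium-calcium exchangers measured here are the products of 10 genes. They were chosen by name, as every array probe whose gene symbol is Atp2a2, Atp2a3, Atp2b1, Atp2b2, Atp2b3, Atp2b4, Slc8a1, Slc8a2, Slc8a3 or Slc24a4, ignoring case and a trailing tag for predicted genes. Each gene was read by 1 probe, so the set holds 10 of the 22523 probes, and 10 of the 21526 gene symbols, on the array. Total RNA came from the incisor enamel organs of 4 male Wistar rats (Wistar Hannover in the study's methods) at the age of 4 weeks. The animals carried no engineered allele and received no treatment, and each rat gave 1 secretory-stage and 1 maturation-stage sample, so that the 8 arrays fall into 4 per stage. The tissue was dissected from the enamel surface, with no cell sort described, so cells beside those of the enamel organ can be in the samples.

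Enamel is laid down in the secretory stage as a soft protein matrix and is filled with mineral in the maturation stage, when the ameloblasts that cover it move large amounts of calcium to the crystals. Cells keep free calcium low with 2 kinds of machines. SERCA pumps (the Atp2a genes) use ATP to load calcium into the endoplasmic reticulum, and PMCA pumps (the Atp2b genes) use ATP to push it out through the plasma membrane. Sodium-calcium exchangers of the NCX family (the Slc8a genes) and NCKX family (the Slc24a genes, which also carry potassium) export calcium by letting sodium in. SLC24A4 is a known disease gene of enamel, with mutations that cause amelogenesis imperfecta of the maturation type.

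In maturation-stage enamel organs, the signals of Slc24a4, Atp2a2 and Atp2a3 were up-regulated 33.6-fold, 2.20-fold and 1.99-fold relative to the secretory stage, and those of Atp2b1, Slc8a3 and Atp2b3 were down-regulated 5.47-fold, 3.78-fold and 3.28-fold. The fold of Atp2b3 is measured against the background, since only 1 maturation-stage array detected it, and without background correction its log2 fold change was -0.66. A gene was called at an adjusted p below 0.05 in limma (Benjamini-Hochberg over all probes) together with a fold change of 1.8 or more. Thus 6 of the 10 genes were called, 3 in each direction, on an array where 7.75% of all probes were called (4.6% higher and 3.15% lower in maturation). Without background correction 3 of the 10 remained called (Slc24a4, Atp2a2 and Atp2b1), among 923 probes in all. Slc8a3 then had a log2 fold change of -0.83, and the Atp2a3 call was also lost when any 1 of 6 arrays was left out. The adjusted p alone was passed by 6 of the 10 genes and by 26.9% of all probes. The stages did not overlap for 2 of the higher genes and all 3 of the lower ones, against 13.1% and 14.6% of all probes in those directions (27.7% in either); the exception was Atp2a3. The other 4 genes, Atp2b2, Atp2b4, Slc8a1 and Slc8a2, gave signals at the background, and no stage difference was detectable for them. Over all probes the median log2 fold change was -0.01. The signs of the 6 changes held under every scaling, while those of the 4 genes at the background turned when arrays were left without normalization between them.

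Values below are log2 signals after background correction and quantile normalization (limma's neqc), and log2 fold changes give the maturation-stage mean minus the secretory-stage mean. The deposited signals are the mean bead intensities before either step. A probe counts as detected on an array at a detection p below 0.05, which corresponded to deposited signals of 115 to 117 on secretory-stage arrays and 121 to 130 on maturation-stage arrays. Brightness depends on the probe as well as on the transcript, so differences between the signals of a pair of genes, where given, serve only to compare their changes between the stages. These are bulk samples, in which fewer cells of a type and less RNA per cell cannot be told apart.

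The labelled stages were checked against their markers. Of the matrix genes of the secretory stage, Enam fell by 4.98 and Mmp20 fell by 4.03 on the log2 scale, and Klk4 and Wdr72 rose by 7.57 and 1.75. Amelx and Ambn, which encode the matrix proteins amelogenin and ameloblastin, remained bright in maturation and were not called. Markers of other cells also moved with the stage. Of 5 odontoblast and osteoblast markers, Dspp was at least 34.0-fold lower in maturation, with no detection there, and Ibsp was higher by 1.95; the summed linear signal of the list was 4609 to 19198 in the secretory stage and 9368 to 10925 in the maturation stage. Of 3 osteoclast markers, Mmp9 and Ctsk were higher by 2.998 and 1.13 and Calcr was detected on no array, with sums of 5917 to 8431 and 14637 to 18807. The part of these cells in the changes of Slc24a4, Atp2a2, Atp2a3, Atp2b1, Atp2b3 and Slc8a3 was not tested. Maturation-stage arrays 1 and 4 kept more Enam, at 9.08 and 8.22, than arrays 2 and 3, at 5.17 and 5.53. Without arrays 1 and 4 the log2 fold change was 5.15 for Slc24a4, 1.17 for Atp2a2, -2.53 for Atp2b1, -1.96 for Slc8a3 and -1.63 for Atp2b3, all still called in limma, and 1.02 for Atp2a3, which was not (adjusted p = 0.128 in limma). The signals of an array summed to 11881691 to 12046793 in the secretory stage and 13355073 to 16122665 in the maturation stage, with 10667 to 10941 and 11164 to 11450 probes detected, and the number of arrays limits the precision.

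The promoters of Slc24a4 and Atp2a2 are shown because these genes rose with no overlap between the stages and their annotated start directly follows the last base of the promoter window. Both are on the plus strand of the GRCr8 assembly (RefSeq), and the 250 bases before the start are given 5′ to 3′. Capitals mark matches on either strand to 5 motifs, none of which contains another. They are the GC box (spelled GGGCGG), the CCAAT box (the letters of its name), the TATA box (spelled TATAAA), the E-box (spelled CACGTG) and the cAMP response element (spelled TGACGTCA). The Slc24a4 window is chr6:127044220-127044469 and the Atp2a2 window is chr12:39733269-39733518.
Slc24a4: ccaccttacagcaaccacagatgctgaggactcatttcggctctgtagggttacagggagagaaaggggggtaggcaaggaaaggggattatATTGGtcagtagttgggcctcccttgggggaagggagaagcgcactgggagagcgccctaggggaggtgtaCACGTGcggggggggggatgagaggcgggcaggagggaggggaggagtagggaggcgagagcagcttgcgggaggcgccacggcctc
Atp2a2: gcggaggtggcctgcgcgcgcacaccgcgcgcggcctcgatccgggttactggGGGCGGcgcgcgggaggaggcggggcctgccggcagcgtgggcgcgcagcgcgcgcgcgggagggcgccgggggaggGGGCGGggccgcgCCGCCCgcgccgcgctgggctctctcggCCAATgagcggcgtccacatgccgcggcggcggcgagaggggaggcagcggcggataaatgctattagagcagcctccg
The Slc24a4 window holds 1 E-box, whose first base lies 87 bases before the start, and 1 CCAAT match at 158 bases, and it has no GC box. The Atp2a2 window is 80.0% G or C and holds 3 GC boxes and 1 CCAAT match, and it has no E-box. Among 33469 RefSeq promoters, whose median G or C content is 51.2%, the GC box occurs in 30.5%, the CCAAT box in 34.0%, the TATA box in 12.9%, the E-box in 5.59% and the cAMP response element in 1.59%. Windows were found for 9 of the 10 genes, all but Atp2b3. Of the others, only that of Atp2b2 directly precedes its gene in the gene table. That of Atp2b1 runs past the gene's start, and those of Atp2a3, Atp2b4, Slc8a1, Slc8a2 and Slc8a3 lie inside the gene. For these genes a match, or the lack of one, does not describe the bases before the gene's start. No window of the 9 holds the TATA box or the cAMP response element, and only that of Slc24a4 holds the E-box. A match is a run of letters and not a site of binding.

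Atp2a2 encodes SERCA2, the widely used pump of the endoplasmic reticulum. Its gene lies on chromosome 12 of GRCr8, from 39733519 to 39782942. On the secretory-stage arrays its log2 signal was 12.69, 12.76, 12.68 and 12.66 in rats 1 to 4, and on the maturation-stage arrays it was 13.68, 13.91, 13.75 and 14.00. All 4 maturation-stage values lay above all 4 secretory-stage values. The means were 12.70 ± 0.0414 and 13.84 ± 0.144 (SD, n = 4 each), a log2 fold change of 1.14 (SE 0.0767) with an adjusted p of 4.15e-06 in limma. Within each rat the difference was 0.996, 1.16, 1.06 and 1.33. The probe was bright, at 49.2 to 52.2 times the detection limit in the secretory stage and 107 to 139 times in the maturation stage.

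Atp2a3 encodes SERCA3, a pump of the endoplasmic reticulum known from blood cells, endothelium and some epithelia. The gene lies on chromosome 10 of GRCr8, from 58079710 to 58111279. Its log2 signal was 6.31, 7.81, 7.21 and 6.37 in the secretory stage and 8.19, 8.01, 7.91 and 7.56 in the maturation stage. The secretory-stage values were spread widely, and that of rat 2 lay above the lowest maturation-stage value. The means of 6.93 ± 0.719 and 7.92 ± 0.264 (SD, n = 4 each) gave a log2 fold change of 0.99 (SE 0.312, 95% interval 0.29 to 1.69), which passed with an adjusted p of 0.0423 in limma. Every rat had the higher value in maturation, by 1.88, 0.20, 0.69 and 1.19. The exact permutation test gave p = 0.0571 (two-sided, n = 4 each), and 0.0286 is the smallest p that 4 against 4 arrays allow.

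The Atp2a3 call rests on single arrays. It was lost when any 1 of secretory-stage arrays 1, 3 and 4 or maturation-stage arrays 1, 2 and 3 was left out, with log2 fold changes of 0.79 to 1.09 and adjusted p from 0.0532 to 0.109 in limma. Leaving out secretory-stage array 2 gave 1.29 with an adjusted p of 0.0036, and leaving out maturation-stage array 4 gave 1.10 with an adjusted p of 0.0479. It was also lost without background correction (0.61), with an offset of 50 (0.80, adjusted p = 0.0626 in limma) and with the test that the methods name (adjusted p = 0.135, exact permutation p = 0.0571 as above).

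Markers of other cells that express SERCA3 were read on the same arrays. Of 6 macrophage and leukocyte markers, 4 were higher in maturation (Cd68, Lcp1, Cd53 and Ptprc, with log2 fold changes of 2.19, 1.60, 0.97 and 0.92) and the summed linear signal of the list was 3235 to 3904 in the secretory stage and 8437 to 10975 in the maturation stage. Of 4 endothelial markers, Vwf was higher (0.88) and Cdh5 was detected on no array; the summed signal was 1490 to 2216 and 2758 to 3780. Of 3 platelet markers, none passed, and the sum on secretory-stage array 2, which had the highest Atp2a3 of its stage, was 2818 against 934 to 1073 on the other secretory-stage arrays. Of 3 erythroid markers none passed, with sums of 14586 to 26215 and 22063 to 25575. Among them Alas2 was 6.16, 8.04, 7.10 and 6.44 on secretory-stage arrays 1 to 4, in the same order as Atp2a3, and had a log2 fold change of -1.07 between the stages. This is 1 marker in 1 stage, and 4 values can share an order by chance. In maturation Atp2a3 was highest on array 1 and lowest on array 4. The erythroid sum was then highest on array 3 (25575) and lowest on array 2 (22063). The part of these cells in the Atp2a3 signal was not tested.

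The changes of the SERCA isoforms were compared through the difference between their log2 signals on each array. The difference of Atp2a2 minus Atp2a3 was 5.77 ± 0.685 in the secretory stage and 5.92 ± 0.387 in the maturation stage (SD, n = 4 each). It moved by 0.15 between the stages (exact permutation p = 0.657, two-sided), and by -0.88 to 0.96 within single rats, so that these arrays set only a loose limit on how far the isoforms differed in their rise. This was 1 of 4 pairs compared, and p-values of the pairs were adjusted over the 4. The pair tests are unpaired; with the rat as a block, no pair of the 4 passed (adjusted p = 0.167 at the lowest, exact sign-flip permutation), since 4 rats allow no p below 0.125.

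**Figure D1:**
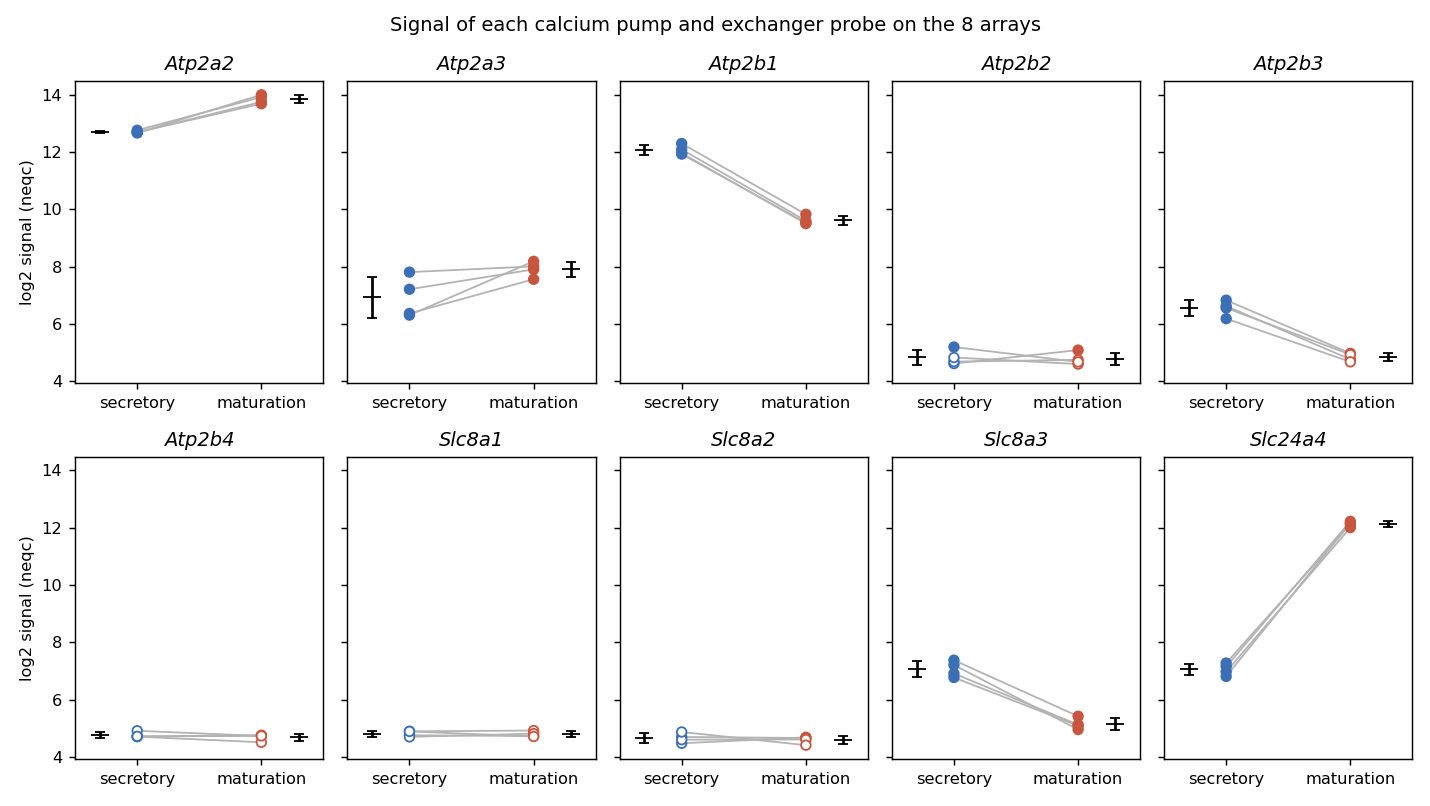
Log2 signal (neqc) of each of the 10 probes on the 8 arrays, with a grey line joining the arrays of a rat, filled circles for detected and open circles for undetected values, and bars giving the mean and SD of each stage. Slc24a4 and Atp2a2 were higher in maturation and Atp2b1, Atp2b3 and Slc8a3 lower in all 4 rats without overlap, Atp2a3 overlapped, and the other 4 genes lay at the background.

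Atp2b1 encodes PMCA1, the plasma membrane calcium pump that most tissues use. The gene lies on chromosome 7 of GRCr8, from 35622267 to 35731904. Its log2 signal was 12.30, 12.09, 11.93 and 11.96 in the secretory stage and 9.83, 9.60, 9.53 and 9.50 in the maturation stage. The stages were far apart and the order of the rats was nearly the same in both. The means were 12.07 ± 0.168 and 9.62 ± 0.147 (SD, n = 4 each). The log2 fold change was -2.45 (SE 0.101, 95% interval -2.68 to -2.22) with an adjusted p of 2.20e-07 in limma. Within each rat the difference was -2.47, -2.49, -2.39 and -2.46, a spread of the rats much narrower than that of the signals. The probe remained well detected in maturation, at 7.13 to 9.81 times the detection limit, against 30.0 to 38.0 times in the secretory stage.

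Atp2b3 encodes PMCA3, a fast plasma membrane pump known mainly from brain. The annotation of the array puts the gene on chromosome 1 and GRCr8 on chromosome X, from 156367582 to 156464085. The probe was named by the annotation of the array, and which locus it matches was not settled here, so its values may not be those of Atp2b3. Its log2 signal was 6.83, 6.63, 6.56 and 6.19 in the secretory stage and 4.98, 4.77, 4.94 and 4.68 in the maturation stage. It was detected on all 4 secretory-stage arrays, but on only 1 of the 4 maturation-stage arrays, that of rat 1. The stages did not overlap, with means of 6.55 ± 0.269 and 4.84 ± 0.139 (SD, n = 4 each), and the log2 fold change was -1.71 (SE 0.131) with an adjusted p of 9.31e-06 in limma. In the deposited signals the distance was small, 148 to 177 in the secretory stage and 118 to 132 in the maturation stage, and without background correction the log2 fold change was -0.66, short of the fold threshold.

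PMCA3 is known from neurons, and the neuronal markers did not move one way. Of 6, Snap25 was at least 15.7-fold higher in maturation, with no detection in the secretory stage, Tubb3 fell by 2.58 on the log2 scale and Nefl was detected on no array. The summed linear signal of the 6 was 2031 to 2899 in the secretory stage and 2898 to 3517 in the maturation stage. Gap43, the brightest of them with means of 10.98 and 11.28 on the log2 scale, weighs most in this sum and was not called. The part of neurons in the Atp2b3 signal was not tested.

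Atp2b2, which encodes PMCA2, the pump of hair cells and lactating mammary gland, and Atp2b4, which encodes PMCA4, a pump found in many tissues, were at or below the detection limit. Atp2b2 was detected on 1 array of each stage, with deposited signals of 104 to 120 in the secretory stage and 110 to 136 in the maturation stage. Atp2b4 was detected on none, with 107 to 114 and 106 to 123. Their log2 fold changes were -0.05 (95% interval -0.38 to 0.27) and -0.08 (-0.25 to 0.09), with adjusted p of 0.859 and 0.566 in limma. At this signal a change below the background cannot be seen, and the intervals describe the background as much as the transcripts.

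The log2 difference of Atp2b1 minus Atp2b3 was 5.51 ± 0.177 in the secretory stage and 4.77 ± 0.119 in the maturation stage (SD, n = 4 each). The shift was -0.74 (exact permutation p = 0.0286, adjusted p = 0.0381 over 4 pairs), and -0.95 to -0.62 in single rats. Genes entered the pairs if detected on all 4 arrays of at least 1 stage, which Atp2b3 met through the secretory stage alone. Since Atp2b3 was detected on only 1 maturation-stage array, its fall is measured against the background. The p depends on that background too, and these values do not settle which of the genes fell further. The shift was also -1.07 with normexp without negative controls, -1.37 with an offset of 50 and -1.68 without background correction.

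**Figure D2:**
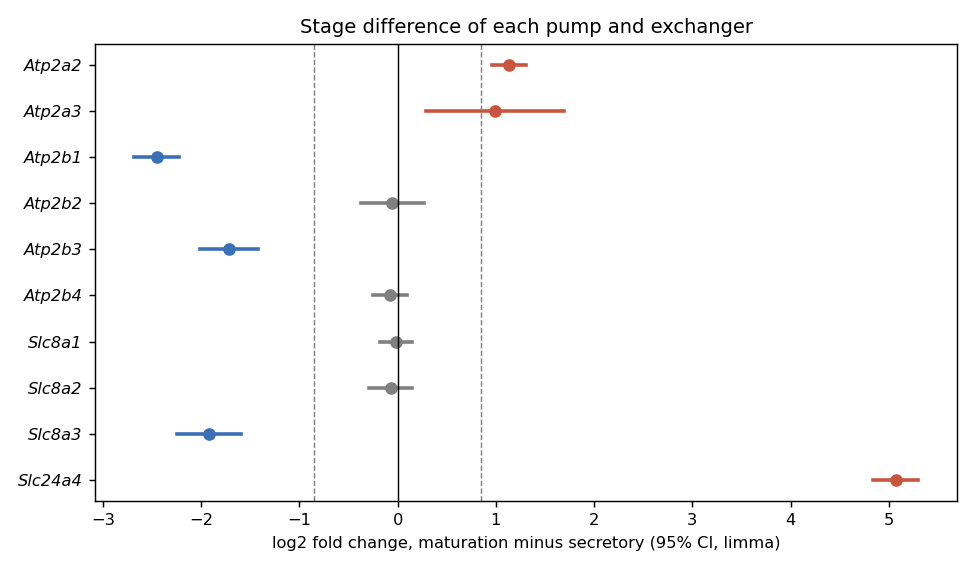
Log2 fold change (maturation minus secretory, limma) of each gene with its 95% interval; dashed lines mark the 1.8-fold threshold, red marks genes called higher, blue those called lower and grey those not called. The pumps of the endoplasmic reticulum lie to the right, Atp2b1 and Atp2b3 to the left, and the 2 exchangers that were called lie at -1.92 (Slc8a3) and 5.07 (Slc24a4).

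Slc24a4 encodes NCKX4, a potassium-dependent exchanger of the plasma membrane, and had the largest change of the 10. The gene lies on chromosome 6 of GRCr8, from 127044470 to 127184684. The deposited signal was 183 to 209 on secretory-stage arrays and 4676 to 5456 on maturation-stage arrays. On the log2 scale the values were 6.98, 7.16, 6.82 and 7.28 in the secretory stage and 12.003, 12.22, 12.16 and 12.12 in the maturation stage. The transcript was detected on all 8 arrays, at 1.57 to 1.79 times the detection limit in the secretory stage and 38.7 to 42.9 times in maturation. The means of 7.06 ± 0.204 and 12.13 ± 0.0925 (SD, n = 4 each) gave a log2 fold change of 5.07 (SE 0.102, 95% interval 4.84 to 5.30) with an adjusted p of 6.21e-09 in limma. The rats differed little, at 5.03, 5.07, 5.35 and 4.84. Without background correction the log2 fold change was 4.34, so the size of the fold depends on the background step.

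Slc8a3 encodes NCX3, an exchanger of the plasma membrane known from brain and skeletal muscle. The gene lies on chromosome 6 of GRCr8, from 106605611 to 106739208. Its log2 signal was 7.38, 6.92, 7.21 and 6.78 in the secretory stage and 5.43, 5.13, 4.96 and 5.09 in the maturation stage. All 8 arrays detected it, but in maturation only just, at 1.003 to 1.15 times the detection limit, and the stages did not overlap. The means were 7.07 ± 0.275 and 5.15 ± 0.195 (SD, n = 4 each). The log2 fold change was -1.92 (SE 0.144) with an adjusted p of 8.11e-06 in limma, and within the rats it was -1.96, -1.78, -2.25 and -1.68. In the deposited signals, 174 to 217 in the secretory stage stood against 121 to 149 in the maturation stage, and without background correction the log2 fold change was -0.83, just short of the fold threshold.

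Skeletal muscle is a source of NCX3, and its markers were read beside the gene. Of 7 muscle markers none passed and Myh4 was detected on no array. Their summed linear signal was 261 to 632 in the secretory stage and 262 to 1061 in the maturation stage, highest on maturation-stage array 4, where Slc8a3 was 5.09 on the log2 scale, within the range of the other maturation-stage arrays. The part of muscle in the Slc8a3 signal was not tested.

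Slc8a1, which encodes NCX1, the exchanger of heart and kidney, and Slc8a2, which encodes the brain exchanger NCX2, were detected on none of the 8 arrays. The deposited signals of Slc8a1 were 109 to 114 in the secretory stage and 117 to 125 in the maturation stage, and those of Slc8a2 were 99.0 to 113 and 105 to 120. Both sets lay below the detection limit of their own array. The log2 fold changes were -0.02 (95% interval -0.18 to 0.15) and -0.07 (-0.29 to 0.15), with adjusted p of 0.925 and 0.706 in limma. No change was detectable at this signal, and with 1 probe per gene, transcript forms that lack the probe's target are not counted.

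Slc8a3 and Slc24a4 moved in opposite directions. Their log2 difference, Slc8a3 minus Slc24a4, was 0.01 ± 0.460 in the secretory stage and -6.97 ± 0.273 in the maturation stage (SD, n = 4 each). It shifted by -6.99 between the stages and by -7.60 to -6.52 in single rats (exact permutation p = 0.0286, adjusted p = 0.0381 over 4 pairs). The shift was -6.03 with an offset of 50 and -5.17 without background correction. Slc8a3 in maturation and Slc24a4 in the secretory stage both lay near the detection limit. The transcripts of the store pump SERCA2 and the plasma membrane pump PMCA1 parted as well. Atp2a2 minus Atp2b1 rose from 0.63 ± 0.163 to 4.22 ± 0.268, a shift of 3.59 or 12.04-fold in relative signal (exact permutation p = 0.0286, adjusted p = 0.0381 over 4 pairs), with 3.46 to 3.79 in single rats. Both pairs join genes that moved in opposite directions without overlap. Their exact p was therefore bound to be the smallest that 4 against 4 arrays allow, and it adds nothing to the results of the single genes.

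**Figure D3:**
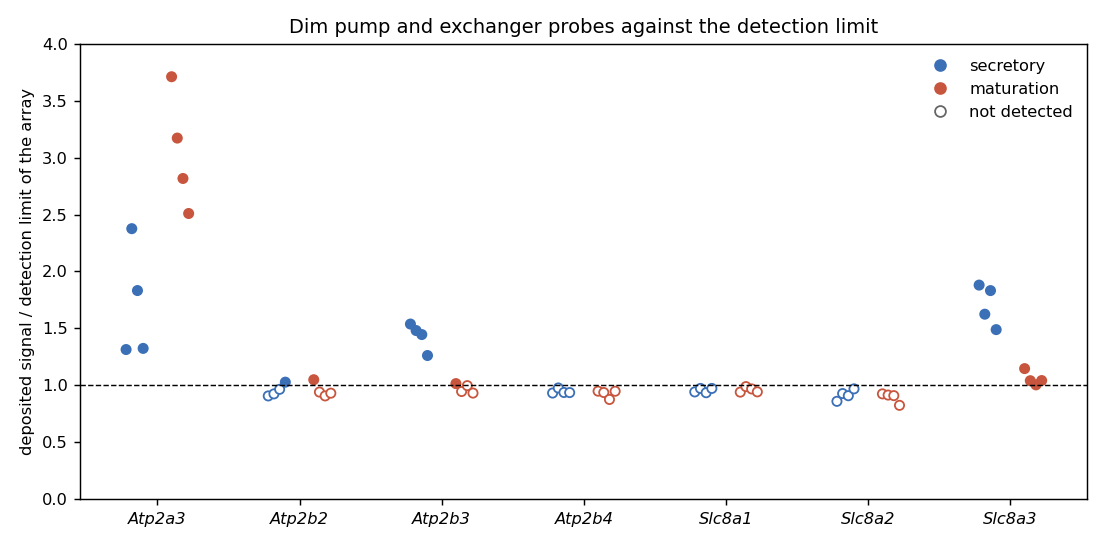
Deposited signal of the 7 dim probes divided by the detection limit of the same array, with secretory-stage arrays in blue and maturation-stage arrays in red, and open circles where the probe was not detected. Atp2b3 and Slc8a3 stood at 1.26 to 1.88 times the limit in the secretory stage and at 0.93 to 1.15 times in maturation, while Atp2b2, Atp2b4, Slc8a1 and Slc8a2 stayed near or below the line in both.

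Close relatives of the 10 genes were looked up next. Of 8 relatives, 3 had a probe. Slc8b1, the exchanger that carries calcium out of mitochondria, was higher in maturation by 0.94 on the log2 scale (SE 0.0886, adjusted p = 3.76e-05 in limma). Slc24a3, which encodes the exchanger NCKX3, was at least 1.90-fold lower, from 5.87 ± 0.250 (SD, n = 4) to values that no maturation-stage array detected. That secretory-stage mean was not far above the lowest detected values there (5.01 to 5.06), and the bound holds only for the processing used here. The related genes called lower numbered 2 as reported, and 1 both without background correction and with an offset of 50. Atp2c1, the calcium and manganese pump of the Golgi, had a log2 fold change of 0.34 and missed the fold threshold. Thus the signal of NCKX3 fell into the background while that of NCKX4 rose on the same arrays.

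Of 9 genes for proteins that regulate or accompany the pumps and exchangers, only Fxyd1, a small regulator of the sodium pump and of NCX1, was called, at 0.89 on the log2 scale. Pln, the SERCA inhibitor phospholamban, was detected on no secretory-stage array and on all 4 maturation-stage arrays, at least 1.27-fold higher. Calm2 and Calm3, which encode calmodulin, an activator of the plasma membrane pumps, had log2 fold changes of 0.00 and 0.02. Nptn and Bsg, which encode partner subunits of the plasma membrane pumps, had -0.59 and 0.03, and S100a1, which encodes a SERCA-binding protein, had -0.78; all were short of the fold threshold.

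Of 11 genes of calcium entry and release, 6 were higher and 1 was lower in maturation (4.6% and 3.15% of all probes), and the median log2 fold change was 1.03, against -0.01 over all probes. The store sensors Stim1 and Stim2, which open entry channels when the store that SERCA fills runs low, rose by 1.70 (SE 0.0831) and 1.93 (SE 0.101). Of the entry channels, Orai2 rose by 2.27 (detected on 2 secretory-stage arrays), while Orai1 had 0.25 and Orai3 had 0.51. Among the release channels, Itpr1 fell by 2.97 (SE 0.0996), from 13.41 ± 0.117 to 10.44 ± 0.184 (SD, n = 4 each), Itpr2 was at least 1.85-fold higher and Itpr3 had 0.66, short of the fold threshold. Ryr1 rose by 1.97 and Ryr3 by 1.03, each by 1 of 3 probes. None of the other probes was called. Those of Ryr1 were detected on no array, 1 of those of Ryr3 on 1 array of each stage, and the other on none. The Ryr3 probe used was itself detected on only 2 secretory-stage arrays, so its rise is measured near the background.

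Of 8 genes of calcium buffers and store proteins, 1 was called. S100g, the cytosolic calcium carrier calbindin-D9k, was higher by 7.57 on the log2 scale. It was detected on all 4 maturation-stage arrays but on only 2 secretory-stage arrays, where its mean of 4.99 lay below the lowest detected values (5.01 to 5.06), so the size of the rise is measured against the background. None of the other 7 genes passed: Calb1 (calbindin-D28k) was at 14.72 ± 0.0389 and 14.79 ± 0.0371 (SD, n = 4 each), and the store proteins Calr, Canx and Hsp90b1 had log2 fold changes of 0.08, 0.08 and -0.24. Of 4 genes of mitochondrial calcium transport none passed, with Letm1 the highest at 0.73.

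The sodium pump sets up the sodium gradient that drives the exchangers. Of 5 subunit genes, 2 were higher in maturation and none was lower. The beta subunits Atp1b3 and Atp1b2 rose by 1.25 (SE 0.0595, adjusted p = 4.94e-07 in limma) and 1.15 (SE 0.172, adjusted p = 7.02e-04). Atp1b1 had a log2 fold change of 0.66 and did not pass the fold threshold. Over the 40 related genes with a probe that were described, 11 were called higher and 2 lower, with a median of 0.15, against 4.6% higher, 3.15% lower and a median of -0.01 over all probes. Without background correction the counts were 6 higher and 1 lower, and with an offset of 50 they were 7 and 1. Some genes of the lists were left out of these counts. These counts describe lists that were drawn up with earlier results of the same arrays known.

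**Figure D4:**
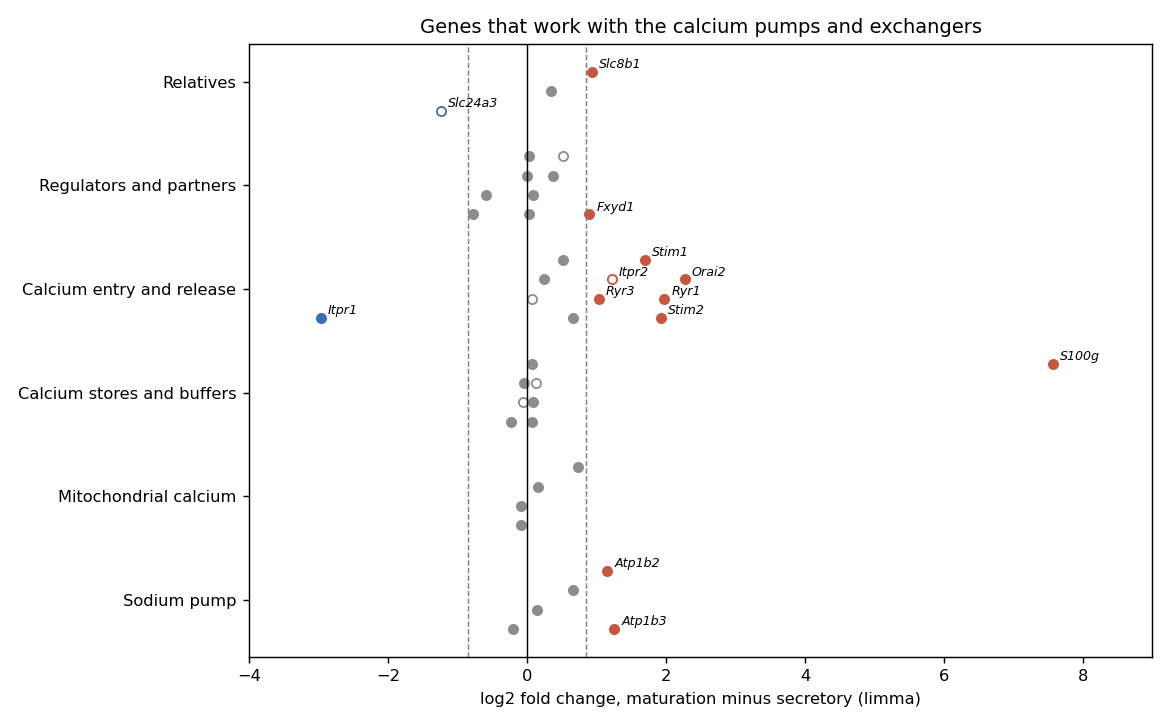
Log2 fold change (maturation minus secretory, limma) of the 40 related genes with a probe, by list; dashed lines mark the 1.8-fold threshold, red and blue mark genes called higher and lower, grey those not called, and open circles genes undetected on all arrays of a stage. The 7 called genes of calcium entry and release span -2.97 (Itpr1) to 2.27 (Orai2), and S100g, whose rise is measured against the background of the secretory stage, stands at 7.57.

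For each of the 6 called genes, the probes of other genes whose signals followed it most closely were named by Pearson's r over the 8 arrays, among 11233 probes detected on at least 4 arrays. The arrays form a cluster per stage, so r mostly reflects the stage difference, and 753 to 1057 probes exceeded 0.95 for each gene except Atp2a3, for which 8 did. For Atp2b1 the first was Itpr1 (r = 0.999), followed by Kcnip2 and Fkbp5. For Slc24a4 they were Klk4, the protease of maturation ameloblasts, Tfrc, the transferrin receptor, and Fdps, each at 0.999. For Atp2a2 they were Prkag2, Tmem167b and Kidins220 (0.997 to 0.999), for Slc8a3 Fetub, Pla2g5 and Rpl35 (0.993 to 0.997), for Atp2b3 Wwc1, Lsamp and Rhob (0.995 to 0.996), and for Atp2a3 LOC499890, Lrp1 and Lrrc8e (0.958 to 0.976).

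**Figure D5:**
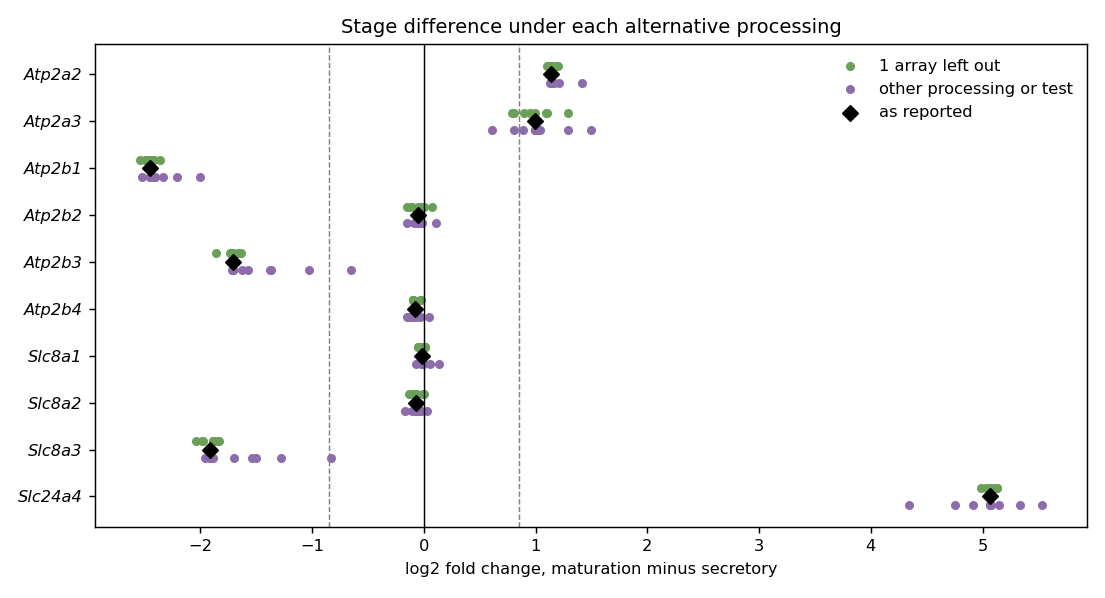
Log2 fold change (maturation minus secretory) of each gene as reported (black diamonds), with each array left out in turn (green) and under the other processing choices and tests (purple); dashed lines mark the 1.8-fold threshold. Slc24a4, Atp2a2 and Atp2b1 stayed past the lines throughout, Atp2b3 and Slc8a3 crossed the left line without background correction, and Atp2a3 lay on both sides of the right line.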

How the data were processed

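Total RNA of secretory- and maturation-stage enamel organs was hybridized to RatRef-12 v1 arrays. The authors deposited the uncorrected and unnormalized mean intensity of the beads of each probe, with a detection p-value, bead number and bead standard error; summarising software and genome build are not given in the sources used here. Stages were taken from titles and tissue entries, against which the source names of maturation-stage arrays 2 to 4 give the secretory stage. Signals were processed with limma 3.58.1 in R 4.3.3 (neqc, negative controls inferred from detection p, offset 16), giving log2 values of the deposited signals, and tested unpaired over all 22523 probes with lmFit and eBayes. No probe was filtered out. A gene undetected on all arrays of a stage has its fold as a lower bound, against the lowest detected value there. A gene with several probes was read by its brightest. Current symbols and coordinates came from a GRCr8 gene table, which matched 17430 probes. Pairs of genes were compared with exact permutation tests (scipy 1.17.1). The named genes were the 10 genes, genes of the related and marker lists, and the 3 probes most correlated with each called gene. Some genes of the related lists are not reported here and were left out of the lists' counts. Members and lists were chosen with earlier results of these data known. Each rat gave both stages, so replicate numbers pair the samples. Deviations from the stage means correlated at 0.129 to 0.234 within rats and -0.08 to -0.04 between rats. The scripts were tested on simulated data.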

Additional observations from a re-analysis of the deposited data

How the results depend on the processing

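All 6 called genes kept their direction under all alternatives, and Slc24a4, Atp2a2 and Atp2b1 also kept their call. With the rat as a replicate block, all 6 calls were kept and 1750 probes were called in all (1745 without it). The pairs other than Atp2a2 with Atp2a3 then had an unchanged shift (-0.74 for Atp2b1 minus Atp2b3, -6.99 for Slc8a3 minus Slc24a4 and 3.59 for Atp2a2 minus Atp2b1) with an adjusted p of 0.167, since 4 rats allow no exact p below 0.125. Without background correction, 1 gene remained called lower, 526 probes were called higher and 397 lower over the array, and the related lists gave 6 higher and 1 lower (11 and 2 as reported); with an offset of 50 they gave 7 higher and 1 lower. Median scaling gave 1610 probes higher and 465 lower (77.6% higher, 59.3% as reported). No normalization between arrays, added after the data were seen, gave 2268 and 332 (87.2% higher) and moved the median of all probes to 0.13; the undetectable changes turned to 0.11 for Atp2b2, 0.048 for Atp2b4, 0.13 for Slc8a1 and 0.032 for Slc8a2. Atp2a2 minus Atp2a3 turned to -0.081 under both scalings. Without maturation arrays 1 and 4, also added later, Slc8a1 turned to 0.053 and these 3 pairs shifted by -0.90, -7.11 and 3.70 (adjusted p = 0.178, exact permutation). With each array left out in turn, Slc8a1 ranged from -0.056 to 0.012, Atp2b2 from -0.15 to 0.069, Atp2a2 minus Atp2a3 from -0.14 to 0.33, Atp2b1 minus Atp2b3 from -0.82 to -0.61, Slc8a3 minus Slc24a4 from -7.17 to -6.86 and Atp2a2 minus Atp2b1 from 3.48 to 3.74; 3 against 4 arrays allow no exact p below 0.0571, and these 3 pairs reached 0.0762 after adjustment. The cause of these differences was not tested. Signal over background limits Atp2b2, Atp2b4, Slc8a1, Slc8a2 and the maturation-stage values of Atp2b3 and Slc8a3.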
